A study of Mus musculus with 2 samples.

Results

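The cytosolic ribosomal protein genes encode the proteins of the ribosome that translates nuclear mRNAs. They were taken by symbol: every gene of both deposited gene tables that GENCODE M21 types as protein coding and that is named Rpl or Rps with a digit, Rplp0, Rplp1, Rplp2 or Rpsa, without the S6 kinases (Rps6k) and without symbols containing -ps. The rule found 86 genes among 43346, of which 52 carry large subunit (Rpl) and 34 small subunit (Rps) symbols. No measured value entered the rule. Of the 86 genes, 77 encode the standard ribosomal proteins. The other 9 are second genes for a protein (Rpl3l, Rpl10l, Rpl22l1, Rpl36al, Rpl39l, Rps27l, Rps27rt), the related factor Rpl7l1, and Rps19bp1, which encodes a protein that binds Rps19.

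The data are total RNA sequencing of the forebrain of 2 newborn mice of strain B6NCrl (postnatal day 0), pup 1 (replicate 1) and pup 3 (replicate 2), with 1 library each. Both form 1 group without any treatment or altered allele named in the labels, so there is no contrast between conditions and all values below are descriptions with no test. Per the labels, 10 ng of RNA longer than 200 nt entered each library, each sample is a single forebrain, sex was not collected, and both samples carry the same donor identifier. The authors' expected counts, in which a read matching several genes is split among them, summed to 40066386 for pup 1 and 40431595 for pup 3. The 6 forebrain markers Emx1, Neurod6, Tbr1, Dlx1, Dlx2 and Nr2f1 all reached a mean of 1 TPM or more, and none of 5 midbrain and hindbrain markers did (summed 0.16 TPM in pup 1 and 0.05 in pup 3). TPM is each gene's share of all transcripts, scaled to the same total in both libraries and divided by transcript length. Genes were compared with each other on it, which depends on the transcript lengths used and on how shared reads were divided.

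A cytosolic ribosome is built from a small subunit, which holds the mRNA and reads its codons, and a large subunit, which joins amino acids into protein. Each ribosomal protein is needed in a fixed number of copies, nearly always a single copy per ribosome, and the mRNAs of these genes are among the most abundant of growing cells. In vertebrates most of these mRNAs start with a cytosine and a run of pyrimidines, the 5′ terminal oligopyrimidine (TOP) tract, which links their translation to mTOR and LARP1. The genes are short, many hold small nucleolar RNA (snoRNA) genes in their introns, and they have left many processed pseudogenes, which are reverse-transcribed copies, in mammalian genomes.

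The TOP tract was looked for in the reference sequence around annotated transcript starts. The 5′ ends of the mRNAs in these libraries were not measured. The RefSeq promoter table (GRCm38.p6) held 66 of the 86 genes. Below are 20 bases on each side of the annotated start, 5′ to 3′ on the gene's strand, for 5 genes whose tract sits within 2 bases of that start (in capitals) and for 2 of the 3 highest genes, whose annotated start has none (all lower case). They were chosen to show both kinds of start.
Rpl38, chr11:114668560-114668599, plus strand: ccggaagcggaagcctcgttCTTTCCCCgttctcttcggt
Rps18, chr17:33955646-33955685, minus strand: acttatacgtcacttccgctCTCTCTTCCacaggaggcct
Rplp2, chr7:141447631-141447670, plus strand: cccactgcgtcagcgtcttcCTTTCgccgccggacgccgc
Rpl35, chr2:39005112-39005151, minus strand: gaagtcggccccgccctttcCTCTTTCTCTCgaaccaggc
Rps24, chr14:24490658-24490697, plus strand: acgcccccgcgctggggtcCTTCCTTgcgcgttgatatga
Rpl41, chr10:128549149-128549188, minus strand: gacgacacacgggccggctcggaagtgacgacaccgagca
Rps19, chr7:24884572-24884611, plus strand: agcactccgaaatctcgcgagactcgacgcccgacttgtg
A tract, defined as a C followed by 4 or more of C and T, began within 2 bases of an annotated start in 22 of the 66 genes (33.3%). The same was true of 10.3% of 17425 other protein-coding genes and of 10.6% of all 27025 genes of the table. With 8 pyrimidines the shares were 24.2% (16 genes) and 2.90%, and with a start allowed within 10 bases they were 60.6% (40 genes) and 34.8%. Members with a tract had a median level of 468 TPM and those without one 435 TPM. A missing tract says only that these letters are not at the annotated base.

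Other short motifs were searched in the windows of 250 bases before and 50 bases from the start. CTTTCC on the gene's strand was in 40.9% of the 66 genes against 15.8% of the other protein-coding genes, and CTCTTTC in 19.7% against 4.35%; both can overlap the tract and each other. CCGGAAG on either strand, a core that ETS factors such as GABPA bind, was in 39.4% against 12.8%. AAGATGGC on either strand, a core bound by YY1, was in 9.09% against 3.55%. The TATAAA box on the gene's strand was in 9.09% against 9.82%, the only one of the 5 that was not more frequent in the ribosomal protein genes.

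Both pups held the ribosomal protein mRNAs at high levels. The 86 genes had a median of 447 TPM in pup 1 and 541 TPM in pup 3, against a median of 17.0 TPM over 13030 detected protein-coding genes. Summed over the 86 genes, the share of TPM was 4.26% for pup 1 and 5.30% for pup 3. Their share of expected counts, which are not divided by length, was 1.57% and 2.14%. In both pups, 78 of the 86 genes exceeded 100 TPM, 38 exceeded 500 and 4 exceeded 1000, a level that 85 protein-coding genes reached. In a bulk sample, more cells of a type and more RNA per cell cannot be told apart.

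**Figure D1:**
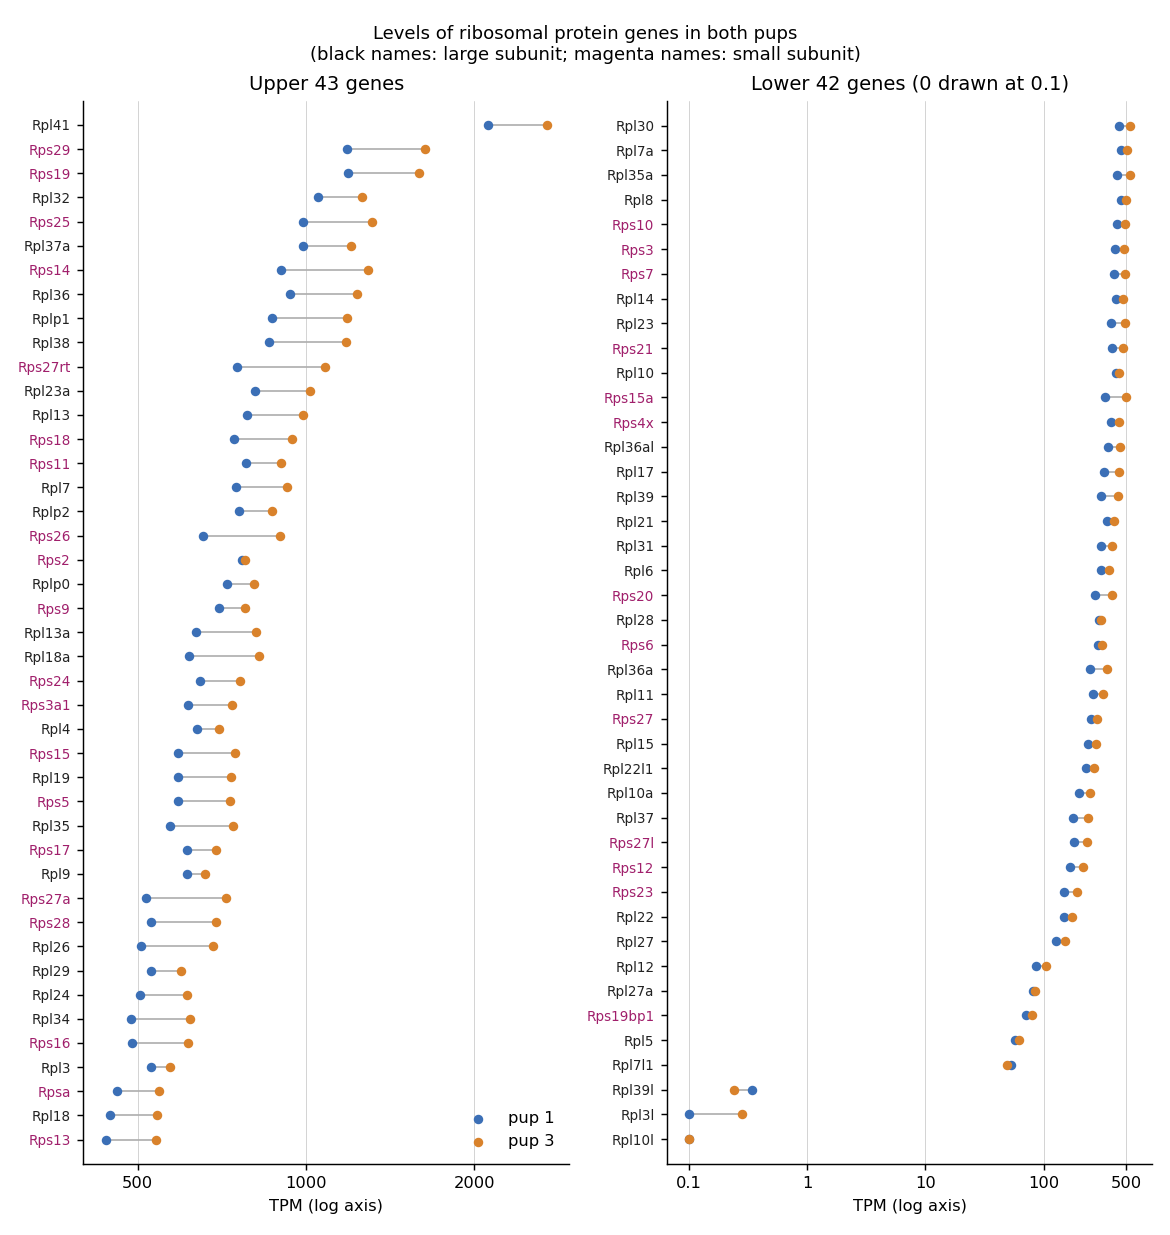
TPM of 85 of the ribosomal protein genes (log axis), ranked by the mean of both pups, with pup 1 in blue and pup 3 in orange joined by a line. Rpl41 stands highest at 2119 and 2693 TPM, Rpl5 is the lowest standard gene at 57.7 and 62.4 TPM, and Rpl39l, Rpl3l and Rpl10l lie at the bottom, where a TPM of 0 is drawn at 0.1.

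The highest gene was Rpl41 (ENSMUSG00000093674, mm10 chr10:128548114-128549305, minus strand), which encodes one of the smallest proteins known in eukaryotes. It reached 2119 TPM in pup 1 and 2693 in pup 3. Next came Rps29, a small zinc-binding protein of the small subunit, at 1184 and 1628 TPM. Rps19, the gene most often mutated in Diamond-Blackfan anaemia, stood at 1186 and 1591 TPM. The order of these last 2 genes turned between the pups, so their levels did not differ beyond the spread. Rpl32 had 1049.7 TPM in pup 1 and 1260.3 in pup 3, Rps25 had 987 and 1313, and Rpl37a had 988 and 1205. Rps14, which lines the mRNA exit channel, was at 902 and 1289 TPM, Rpl36 at 935 and 1234, Rplp1 of the stalk at 871 and 1186, and Rpl38 at 860 and 1178. In every one of these 10 genes pup 3 was above pup 1, and the 10 together held 26.0% of the members' TPM in pup 1 and 27.5% in pup 3.

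The 5 lowest genes were Rpl10l, Rpl3l, Rpl39l, Rpl7l1 and Rpl5. Rpl10l, known as the testis copy of Rpl10, was listed at 0 in both pups. Rpl3l, the striated muscle copy of Rpl3, was listed at 0 in pup 1 and at 0.28 TPM in pup 3 (5 expected counts). Rpl39l, also a testis-enriched copy, had 0.34 and 0.24 TPM from 6 and 3 expected counts. These 3 second genes were therefore at the edge of detection, while their parents Rpl10 (409 and 432 TPM), Rpl3 (529 and 570.2) and Rpl39 (309 and 429) were high. Rpl7l1 had 53.0 and 49.2 TPM.

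Among the 77 standard genes the lowest was Rpl5, at 57.7 TPM in pup 1 and 62.4 in pup 3, followed by Rpl27a at 81.2 and 83.8 and Rpl12 at 87.0 and 105. None of the 77 was under 50 TPM in either pup. Their 90th percentile was 4.62 times the 10th in pup 1 and 4.91 times in pup 3, and the coefficient of variation between genes was 59.3% and 62.3%. The order of the genes was nearly the same in both animals: across the 77 genes, which share both libraries and are not independent, Spearman's rho was 0.988. Their median length was 683 nt, against 2510 nt for detected protein-coding genes, and shorter members tended to be higher (rho of TPM with length −0.36 in pup 1 and −0.40 in pup 3, both across genes of 1 library).

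Genes for the small subunit stood slightly above those for the large subunit. The median of the 34 Rps genes was 503 TPM in pup 1 and 653 in pup 3, and that of the 52 Rpl genes 426 and 505. On the log2 scale the large subunit was lower by a mean of −0.30 over both pups. This direction held without the 9 second or related genes, and it reversed on expected counts that are not divided by length (0.07). The Rpl genes were the longer ones, with a median of 746 nt against 608 nt.

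Within the ribosome the named sites differed in the level of their listed TPM. The range inside a site was wide, with means of both pups from 96.2 to 1028 TPM in the stalk and from 191 to 619 in the beak. In the stalk, which recruits elongation factors to the large subunit, Rplp1 had 871 and 1186 TPM, Rplp2 759 and 869, and Rplp0, the base of the stalk, 722 and 807. Rpl12, which sits at the stalk base, had 87.0 and 105 TPM, and 321.5 and 396 with its near-identical copies added. The 5S particle, a pre-assembled unit of Rpl5, Rpl11 and 5S rRNA that also binds the p53 regulator Mdm2 when ribosome assembly fails, was the lowest site on the listed TPM: Rpl5 had 57.7 and 62.4 TPM and Rpl11 263 and 319. With the TPM of the near-identical copies of each gene added, Rpl5 came to 367 and 436 TPM and Rpl11 to 458 and 549.9.

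The 9 genes of the peptide exit tunnel had a median of 595 TPM. Rpl23a, a docking site of the signal recognition particle, was highest at 811 and 1015 TPM, Rpl4, which lines the tunnel, was second by the mean of both pups at 639 and 698, and Rpl22 was lowest at 150 and 173. On the small subunit, the mRNA entry genes Rps2 (767 and 779 TPM) and Rps3 (402 and 480), whose proteins face the incoming mRNA, came to a median of 607. The 5 mRNA exit genes had a median of 660 TPM, from Rps14 (902 and 1289) and Rps26 (654 and 899), which contacts mRNA upstream of the start codon, down to Rpsa (459 and 545), also known as the laminin receptor. The beak genes were lower on the listed TPM, with a median of 456. Rps27a, a fusion of ubiquitin and a small subunit protein, had 517 and 720 TPM, Rps10 419 and 492, and Rps12 167 and 216.

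Of the genes mutated in Diamond-Blackfan anaemia, a failure of red cell formation, 13 were listed. Their median was 595 TPM, beside 486 over all 86 members, from Rps29 and Rps19 at the top to Rpl5 at the bottom. Rps24, for which several protein C termini are annotated, had 645 and 763 TPM. Only 2 of its transcripts were quantified, and 1 of them, Rps24-201, held 99.2% and 99.1% of the TPM. Other annotated forms could not receive a share, so the use of the C termini was not measured. Ribosomal components can also lie outside the symbol rule. The scaffold protein Rack1 had 320 and 390 TPM, and Fau, which gives Rps30, had 423 and 524.

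The 4 lists of genes that serve the ribosome had lower medians than its structural genes. The 22 ribosome biogenesis genes had a median of 43.2 TPM, with the nucleolar chaperone Npm1 at 347 and 367, the box C/D snoRNA protein Nop56 at 207 and 178, and the RNA polymerase I subunit Polr1a at 7.12 and 4.67. The 6 dedicated chaperone genes had a median of 45.7 TPM, with Bccip, which escorts Rpl23, at 89.3 and 83.7, the snoRNA particle assembly factor Znhit3 at 72.8 and 79.8, and Heatr3, which serves Rpl5, at 23.1 and 17.4. Of 8 genes that regulate translation the median was 28.0 TPM, with the TOP mRNA binding protein Cnbp at 609 and 586 and the mTOR partner Rptor at 6.86 and 4.08. The 6 elongation factor genes had a median of 312 TPM. Eef1a1, which brings aminoacyl-tRNA, had 2656 and 2809 TPM, above all members, Eef1b2 had 414 and 449.8, and Eef1a2, the form of mature neurons and muscle, 15.2 and 10.6.

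Several ribosomal proteins can be made from more than one gene. In 3 cases the second gene was above its parent on the listed TPM of the whole gene. Rpl22l1, a second form of Rpl22, had 229 TPM in pup 1 and 268 in pup 3, while Rpl22 had 150 and 173, so the second form was 1.53 and 1.55 times higher (log2 ratio 0.62 in the mean of both pups). Rpl36al had 348 and 445 TPM against 247 and 344 for the X-linked Rpl36a, a ratio of 1.41 and 1.30. Both ratios exceeded 3 SD of the pups' log2 ratios. Transcripts typed protein coding held 57.2% and 55.1% of the TPM of Rpl22l1, and 94.65% and 96.8% of that of Rpl22. On coding transcripts alone Rpl22l1 was therefore slightly below Rpl22 in both pups. That order leaves out Rpl22l1-209, typed processed transcript, with 31.6% and 32.4% of Rpl22l1. It held the last 354 of the 363 coding bases of Rpl22l1, so the type alone does not settle the order of the pair. On expected counts not divided by length, Rpl22l1 over Rpl22 turned to −0.73. The Rpl22 model is the longer one, at 1200.4 nt against 526 nt.

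The third case was Rps27rt, an intronless gene (mm10 chr9:114982366-114982739, minus strand) for the same protein as Rps27 (chr3:90212522-90213651, minus strand). Their coding sequences of 252 bases differed at 0 positions in GENCODE M21, so reads inside them cannot be told apart by sequence. The first 90 coding bases are shown once for both genes.
Rps27 and Rps27rt: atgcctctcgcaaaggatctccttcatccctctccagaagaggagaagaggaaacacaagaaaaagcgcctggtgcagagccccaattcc
Rps27rt was listed at 751 and 1080.3 TPM and Rps27 at 253 and 283, which gave ratios of 2.97 and 3.81. The deposited length of Rps27 was 255 nt, which leaves no room for untranslated ends, while Rps27rt had 370 nt. GENCODE M21 gives their transcripts as 345 and 374 nt, so the deposited model of Rps27 is the shorter one by more than the M21 models differ. The related gene Rps27l had 181 and 231 TPM, below Rps27 by a ratio of 0.715 and 0.814 that did not exceed 3 SD. On expected counts not divided by length the log2 ratio turned from −0.39 to 0.97. Of the summed TPM of these 3 genes, Rps27rt held 63.4% and 67.8%, Rps27 21.3% and 17.8%, and Rps27l 15.3% and 14.5%.

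Rpl7l1 stood well below Rpl7 (749 and 923 TPM), which was 14.1 and 18.7 times higher on TPM. On expected counts not divided by length, the mean log2 ratio of Rpl7l1 over Rpl7 moved from −4.02 to −2.16. The Rpl7l1 model has 2606 nt, and the leading transcript of Rpl7 838 nt. Rps4l, which GENCODE M21 types as a transcribed processed pseudogene and which is no member, had 186 and 138 TPM against 375 and 436 for the X-linked Rps4x. That ratio, 0.497 and 0.316, did not exceed 3 SD. Of the 9 pairs 7 exceeded it, 3 of them with a second gene at or near 0.

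**Figure D2:**
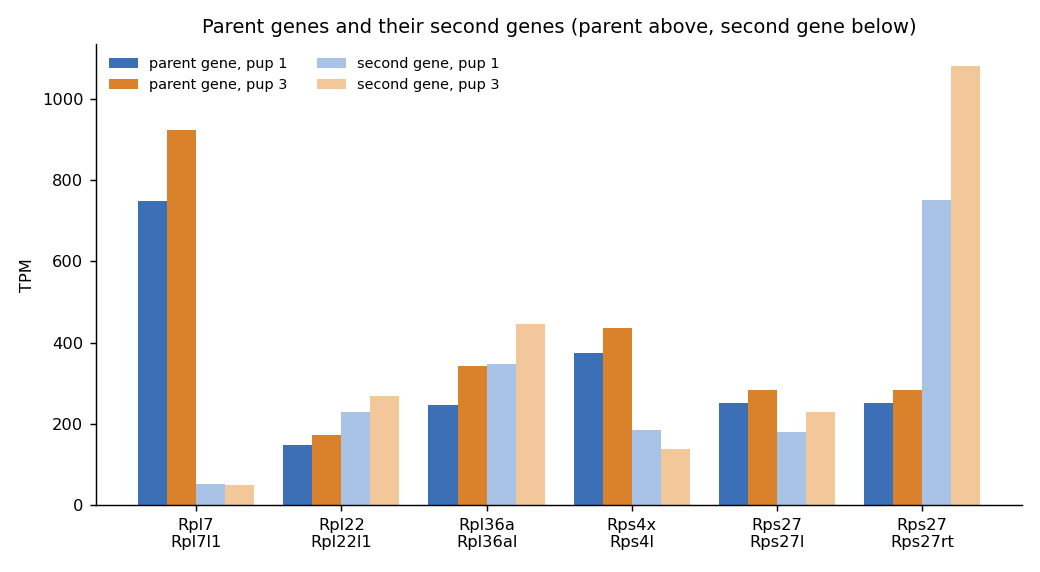
TPM of parent genes (dark bars) and their second genes (pale bars) in pup 1 (blue) and pup 3 (orange), for the 6 pairs whose second gene reached 1 TPM in both pups. The pale bars rise above the dark ones for Rpl22l1, Rpl36al and Rps27rt and stay below them for Rpl7l1, Rps4l and Rps27l.

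Near-identical copies elsewhere in the genome held much of the signal of single members. With blastn of GENCODE M21 transcripts, 131 genes outside the set with a mean of 1 TPM or more matched a member at 90% identity or more over at least 50% of the copy, and 65 of the 86 members had such a copy. Of these copies 124 are typed as pseudogenes, and 21 were identical to the member over the aligned bases. Their summed TPM came to 26.4% of the members' TPM in pup 1 and 26.7% in pup 3, and their expected counts to 16.2% and 16.5% of the members' counts. Copies named for a member with -ps alone (249 genes) came to 10.4% and 10.3%. This search was added after the values were seen.

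Several of the members listed lowest had copies listed far above them. For 14 members the copies summed to more than the member in both pups, among them 9 of the 10 lowest standard genes in each pup, against 5 of the other 67. This contrast is partly built in, because the 10 were picked on the same TPM that the copies were compared with. Rpl27, a large subunit protein, had 126 and 151 TPM, while its 3 copies summed to 798 and 1017. Both Gm11518 (399 and 522 TPM) and Rpl27-ps3 (398 and 495) match Rpl27 over all their 411 bases. Rps23, of the decoding centre, had 149 and 193 TPM. Its copy Rps23-ps1 (mm10 chr3:37714740-37715164, plus strand) was listed at 861 and 1078, and all its 425 bases lie within the 937 bases of Rps23-201. The first 60 of the 429 coding bases of Rps23 are the same in both.
Rps23 and Rps23-ps1: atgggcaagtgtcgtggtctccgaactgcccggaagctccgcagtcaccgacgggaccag
Rpl5 had 57.7 and 62.4 TPM, and its copy Gm15500, identical over 1018 of its 1019 bases, 309 and 374. Rpl27a had 81.2 and 83.8 TPM and Gm7536, identical over 444 bases, 364 and 458. Rpl12 had 87.0 and 105 TPM and Gm10275 229 and 278. Gm14303, whose 171 bases are identical to Rps29, was listed at 1243 and 1683 TPM beside 1184 and 1628 for Rps29. In expected counts, which are not divided by length, Gm14303 had 2225 and 3409 and Rps29 8569.6 and 13336.

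With the copies' TPM added to their member, the median of the 77 standard genes moved from 486 to 630 TPM in pup 1 and from 570.2 to 729.8 in pup 3. The ratio of the 90th to the 10th percentile fell from 4.62 to 2.98 in pup 1 and from 4.91 to 2.96 in pup 3. Rpl27 went from rank 78 of 86 to rank 14 in pup 1 and from 78 to 16 in pup 3, and Rps23 from 77 to 10 and from 76 to 11. The lowest standard gene was then Rpl22, at 150 and 173 TPM, instead of Rpl5. Which locus the divided reads came from was not tested.

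**Figure D3:**
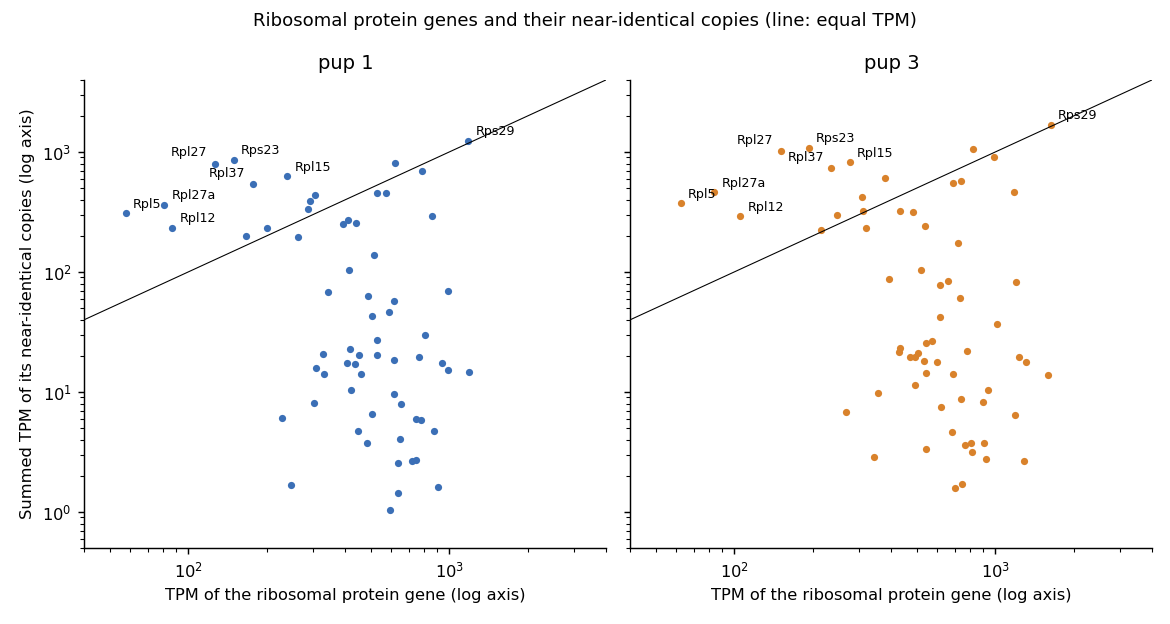
TPM of each member that has a near-identical copy (horizontal, log axis) against the summed TPM of its copies (vertical, log axis), in pup 1 and pup 3, with a line of equal TPM. The 14 members above the line in both pups include Rpl5, Rpl27a, Rpl12, Rpl27, Rps23, Rpl37 and Rpl15 at the low end and Rps29 at the high end.

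The transcript tables divide each gene's TPM among its transcripts. The 86 members had 376 transcripts, of which 183 are typed protein coding in GENCODE M21, 116 retained intron, 48 processed transcript and 10 nonsense-mediated decay. The protein-coding transcripts held 91.5% of the members' TPM in both pups, processed transcripts 3.98% and 4.10%, retained introns 2.56% and 2.45%, and transcripts subject to nonsense-mediated decay 0.589% and 0.550%. Of the 84 members above 0 TPM in both pups, 79 were led by a protein-coding transcript in both pups and 83 had the same leading transcript. The exception, Rpl39l, rested on its 6 and 3 counts.

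In 5 members the leading transcript was not typed protein coding. Rps20-201, typed retained intron, held 90.8% of Rps20 in pup 1 and 92.5% in pup 3. Rpl35-203, a processed transcript, held 88.5% and 87.8% of Rpl35. Rpl23-204, also a processed transcript, held 64.3% and 68.6% of Rpl23. Rpl12-201, typed nonsense-mediated decay, held 55.3% and 59.3% of Rpl12. The leading transcript of Rpl13a, with 37.2% and 38.8%, is one of several identifiers of this gene that are not in GENCODE M21.

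The 4 of these leading transcripts that are in GENCODE M21 carried most of the protein-coding bases. Rps20-201 held the last 355 of the 357 coding bases of Rps20 in 1 run, and Rpl35-203 the last 367 of 369. Rpl23-204 held the last 407 of 420, and Rpl12-201 a run of 459 of 495 bases, with the first 30 also present elsewhere in it. Rps18-209, with 41.1% and 45.6% of Rps18, held the last 454 of 456. None of the 15 such transcripts with a share of 10% or more held a whole coding sequence. The coding transcripts beside them were longer models: Rps20-203 has 3706 nt against 582 nt for Rps20-201, and Rpl35-201 946 nt against 541 nt. In Rps20, Rpl35 and Rps18 the coding bases outside that run are the first 2.

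**Figure D4:**
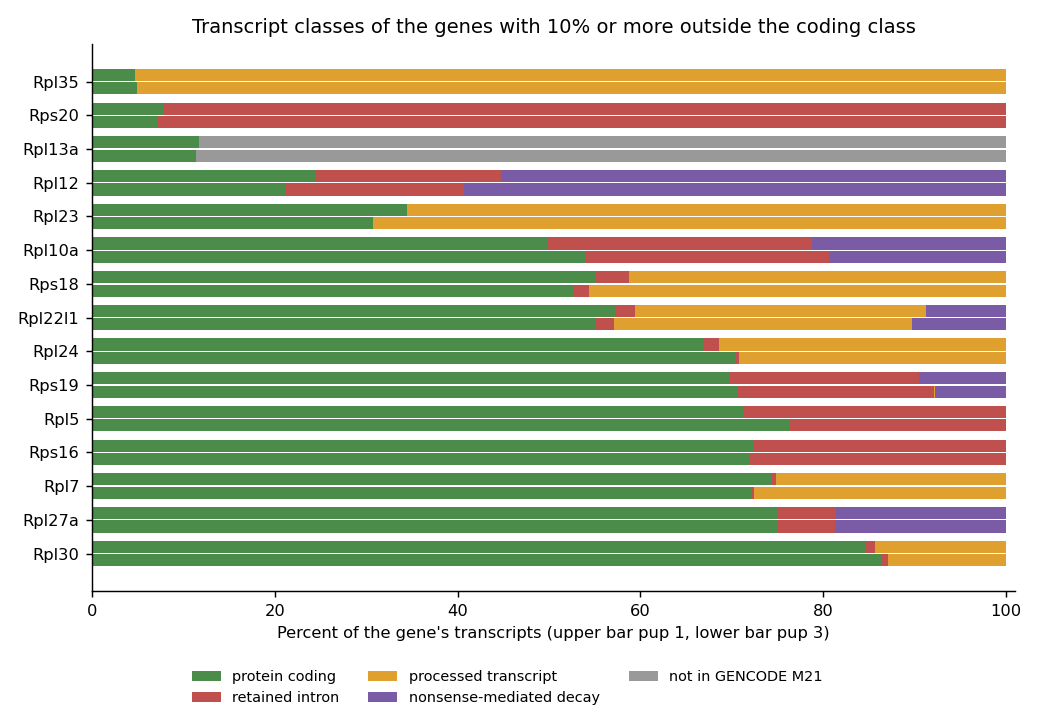
Percent of each gene's TPM by transcript class in pup 1 (upper bar) and pup 3 (lower bar), for the 15 members above 1 TPM with 10% or more outside the coding class in both pups. The coding class (green) takes under 10% of Rpl35 and Rps20, and the bars of the 2 pups are nearly alike in each gene.

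The ribosomal protein genes stood higher in pup 3 than in pup 1 almost without exception. Of the 83 members with a mean of 1 TPM or more, 82 were higher in pup 3, beside 19.5% of all 14990 genes past that filter. Rpl7l1 alone was lower (log2 ratio −0.11 on TPM + 0.1, and 0.19 on TMM-scaled counts, where 83 of 83 were higher beside 52.6% of all genes). The median log2 ratio of members was 0.30, against −0.27 over all genes, so the gap was 0.57. Under TMM and DESeq2 scaling of the expected counts the median of all genes moved to 0.02 and 0.03. That of members moved to 0.59 and 0.60. The gap stayed at 0.57, which is no separate check, because each scaling divides all counts of a library by 1 number. This is 1 animal against another, so it describes these libraries.

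The difference was under 2-fold in each gene, with log2 ratios from −0.11 to 0.57. None of the 83 members passed 2-fold, where 5.45% of all genes did either way. None passed 1.5-fold on TPM, where 21.4% of all genes did either way. In the direction of nearly all members, higher in pup 3, only 1.61% of all genes passed 1.5-fold on TPM. Without the filter on low TPM 1 member did, Rpl3l with its 5 counts, beside 4.57% of all entries. At 1.5-fold, 45 members passed on TMM-scaled counts, beside 10.7% of all genes, and 46 with DESeq2 size factors, beside 11.9%. All of these members were higher in pup 3, as were 4.32% and 5.0% of all genes at that fold. The largest ratios were those of Rps15a (333 and 495 TPM, log2 0.57), Rps27rt (0.52), Rps14 (0.51), Rps27a (0.48) and Rpl36a (0.48). The smallest were those of Rpl7l1, Rps2 (767 and 779 TPM, 0.02), Rpl27a (0.05), Rpl28, a large subunit protein with 292 and 308 TPM (0.07), and Rpl10 (0.08). The Diamond-Blackfan genes were higher in pup 3 in 13 of 13 cases, and Rack1 and Fau were both higher there too. On the same scale 7 of 22 biogenesis genes, 1 of 6 chaperones, 1 of 8 translation regulators and 2 of 6 elongation factors were higher in pup 3, beside the 19.5% of all genes. On TMM-scaled counts these were 14, 5, 4 and 5, beside 52.6%. The median log2 ratio of the biogenesis genes was −0.18 on TPM and 0.14 on TMM-scaled counts.

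Gene length and other cell types moved with the same difference. Among other protein-coding genes of 50 TPM or more, the median log2 ratio was 0.26 for 46 genes of 200 to 500 nt and 0.38 for the 16 members of that length. From 500 to 700 nt it was 0.23 for 153 others and 0.33 for 28 members, and from 700 to 1000 nt 0.10 for 336 others and 0.28 for 27 members. From 1000 to 1500 nt it was −0.02 for 647 others and 0.16 for 7 members, and from 1500 to 3000 nt −0.16 for 1376 others and 0.21 for 5 members. Others longer than that, where no member lies, were at −0.31. The medians of both groups fell with length up to 1500 nt, and the median of members was above that of others in each of the 5 classes.

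**Figure D5:**
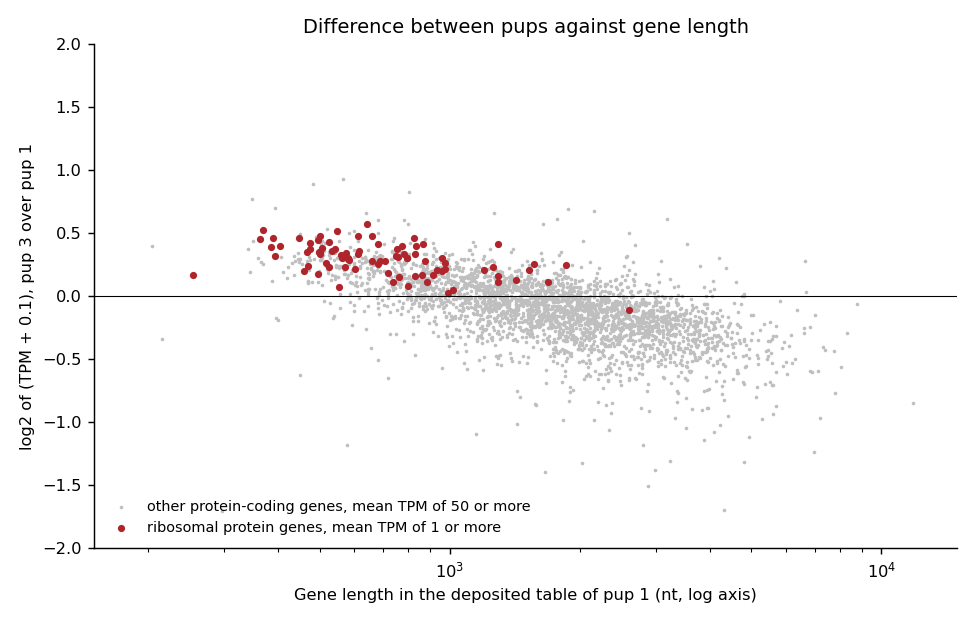
The log2 ratio of TPM + 0.1 in pup 3 over pup 1 against gene length (log axis), for 83 ribosomal protein genes (red) and 3059 other protein-coding genes of 50 TPM or more (grey; 2 of them lie outside the plotted range). The grey cloud falls from above 0 to below 0 with length, and the red points lie at its short end and in its upper part.

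Of the cell type markers, 5 of 5 erythroid genes (Hba-a1, Hba-a2, Hbb-bs, Hbb-bt, Alas2) were higher in pup 3, with summed levels of 2264 TPM in pup 1 and 3207 in pup 3. Both mature neuron markers, Snap25 (241 and 142 TPM) and Nefh (2.88 and 1.86), were lower in pup 3. Of 3 dividing progenitor markers 1 was higher, with sums of 60.9 and 62.3 TPM, and of 3 microglia markers 1 was higher, with sums of 83.0 and 82.1. The choroid plexus gene Ttr had 1335 and 1043 TPM. Of all genes 19.5% were higher in pup 3 on TPM and 52.6% on TMM-scaled counts. On TMM-scaled counts 5 of 5 erythroid, 0 of 2 mature neuron, 2 of 3 progenitor and 2 of 3 microglia markers were higher. The globin genes have 553 to 703 nt. Of other genes of 50 TPM or more, 86.3% from 500 to 700 nt were higher on TPM, and 72.9% from 700 to 1000 nt. From 1500 to 3000 nt, where Snap25 and Alas2 lie, 17.4% were. The part of gene length, of erythroid cells and of neuron number or maturity in the higher ribosomal protein levels of pup 3 was not tested.

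The members also share features of their loci. Of the 77 standard genes, 30 (39.0%) hold at least 1 annotated snoRNA gene within their bounds, 58 snoRNA genes in all, beside 1.72% of detected protein-coding genes (224). Rpl4 holds 5 of them and Rpl13a 4. The 30 host genes had a median of 482 TPM and the 47 others 595. The 86 genes lie on 19 chromosomes, with 14 on chromosome 7 and 4 on the X chromosome (Rpl10, Rpl36a, Rpl39 and Rps4x). Chromosome 7 holds genes for both subunits, among them Rps19, Rpl13a and Rps15a.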

How the data were processed

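Total RNA-seq of 2 newborn mouse forebrains was analysed from the deposited gene and transcript tables. Per the deposited notes, the authors quantified reads on mm10 with GENCODE M4; no source used here gives the aligner, quantifier or strandedness. The deposited tables hold the authors' expected counts (estimated reads, with shared reads divided), TPM, a posterior mean TPM and, as a percent, each transcript's share of its gene. The deposited interval bounds around the posterior mean TPM (a signal on the TPM scale, of a level that no source used here gives) and FPKM were not used. Depth was 40066386 and 40431595 expected counts, and since reads are not independent molecules no counting interval is given. The labels give both samples the same donor identifier, so the spread between them may be partly technical.

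Symbols, types, positions and transcript sequences came from GENCODE M21 (GRCm38, the build of mm10), with identifiers matched without version for 42462 of 43346 genes. Levels were compared in TPM within each library, and ratios between pups as log2 of TPM + 0.1 for genes with a mean of 1 TPM or more. A pair's log2 ratio exceeded the spread if its mean over pups was above 3 SD in size and both pups had the same sign. As alternatives, expected counts rounded to whole numbers were scaled with edgeR 4.0.16 (TMM) and DESeq2 1.42.0 size factors, and no count test was run because each side is 1 animal. Copies were found with blastn 2.17.0. Named are the 10 highest and 5 lowest members, all members of pairs, the 5 largest ratios between pups each way, members led by a transcript that is not coding or differs between pups, Rps24, and the highest 2 and lowest of each list; copies, further motifs, snoRNA hosts and transcripts of 10% or more were chosen after values were seen. Members and lists were chosen with earlier results of these data known. A few items are not reported here. Python 3.11.15 with pandas 2.3.3 was used.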

Additional observations from a re-analysis of the deposited data

How the results depend on the processing

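Over all alternatives, no member passed 2-fold between pups except 1 without a filter on low TPM (Rpl3l, beside 4.57% of all entries). On TPM 0 members passed 1.5-fold, beside 21.4% of all genes either way and 1.61% higher in pup 3. At 1.5-fold, 45 passed on TMM-scaled counts (10.7% of all genes) and 46 with DESeq2 size factors (11.9%), settings added after seeing the data. The median log2 ratio of members, 0.30, became 0.59 with TMM, 0.60 with DESeq2 size factors and 0.57 relative to the median of all genes. The members' share of TPM, 4.78% as the mean of both pups, was 1.85% of expected counts and 5.76% of nuclear protein-coding TPM, and ranged from 4.26 to 5.30% without either replicate. Their median TPM, 494 as the mean of both pups, was 644 with copies added, and ranged from 447 to 541 without either replicate. The large over small subunit difference, −0.30 on the log2 scale, turned to 0.069 on expected counts not divided by length, and ranged from −0.37 to −0.24 without either replicate. Copies named -ps, 10.3% of the members' TPM, were 6.98% of expected counts, and copies found by sequence 26.5%. The tract began within 2 bases of an annotated start in 22 genes, and within 10 bases in 40. On expected counts not divided by length, the log2 ratio of Rps27l over Rps27 turned from −0.39 to 0.97 and that of Rpl22l1 over Rpl22 from 0.62 to −0.73; the other 43 of 45 pair values under alternatives kept their sign. Members led by a coding transcript numbered 78 or 79 in all settings. Pairs past 3 SD numbered 7 on TPM, 3 of them with a second gene at or near 0, and 8 on counts not divided by length. No paired analysis was possible because both samples belong to 1 group. With 2 animals neither could be checked as standing apart.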
